A study of Mus musculus with 4 samples.

Results

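Kupffer cells, the resident macrophages of the liver, lie inside the sinusoids on a wall of liver sinusoidal endothelial cells (LSECs). They filter the blood, take up debris and iron from old red cells, and are marked in mouse by the lectin Clec4f. LSECs are a thin, scavenging endothelium marked by the hyaluronan receptor Stab2 and the lectin Clec4g. They hold Kupffer cells in place through adhesion and send them Notch ligand, BMP and CSF1 signals. The barcodes described here carry RNA of both. They are called dual-marker barcodes, and were chosen on raw counts of unique molecular identifiers (UMIs): 3 or more of Clec4f and 3 or more of Stab2 plus Clec4g. Only barcodes with 500 or more UMIs and 300 or more genes were used, with no more than 25% of UMIs mitochondrial. In the 2 premalignant libraries 361 of 23209 passing barcodes met the rule, 17 of 9497 in the library labelled KO and 344 of 13712 in the library labelled WT. Over all 4 libraries of the series 42454 barcodes passed.

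In the series, dissociated mouse liver was profiled with droplet-based 5' single-cell libraries (10x Genomics), 1 for each of 4 groups: premalignant liver and early hepatocellular carcinoma (eHCC), each with the genotype label KO or WT. Mef2d, a transcription factor of the MEF2 family, is the gene named in the KO label. Strain, age, number of animals, the deleted part of the gene, the cells in which it was deleted and the way in which premalignant change was brought about are not stated in those labels. Mef2d RNA did not follow the label: it stood at 103.8 CPM (UMIs of a gene per 1000000 UMIs; 95% interval 101.1 to 106.5) over all passing barcodes labelled KO premalignant and at 73.0 (71.3 to 74.8) labelled WT. In dual-marker barcodes it was 54.7 CPM (31.3 to 88.8, from 16 UMIs) and 60.1 (54.5 to 66.1, from 419 UMIs). If only a stretch of the gene was removed, UMIs from the rest of it would still be counted. The values therefore leave the label unchecked, and each library is named by its label.

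The dual-marker barcodes were set beside Kupffer-marker barcodes (Clec4f at least 3, Stab2 plus Clec4g under 3; 25 labelled KO, 232 labelled WT) and LSEC-marker barcodes (Stab2 plus Clec4g at least 3, no Clec4f; 3196 and 5865). LSEC barcodes with 1 or 2 Clec4f UMIs (28 and 526) belong to none of the 3 kinds. No group had a replicate library, so nothing was tested between groups, and barcodes are not replicates. Because UMIs chose the barcodes, their contrast with the other 2 kinds is a description. Intervals are exact 95% intervals for counting error only. Between the 2 premalignant libraries 45 passing barcode sequences were shared. Of the dual-marker barcodes, 2 labelled WT were among them and 0 were dual-marker in both libraries.

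The 3 genes of the rule are Clec4f on chromosome 6 (83644542 to 83656187, minus strand), Stab2 on chromosome 10 (86841198 to 87008025, minus strand) and Clec4g on chromosome 8 (3707064 to 3720651, minus strand), in GENCODE vM21 coordinates on the mm10 assembly. In the library labelled WT the dual-marker barcodes held 3 to 302 Clec4f UMIs, with a median of 38.5, and 3 to 197 Stab2 plus Clec4g UMIs, with a median of 30. The ranges labelled KO were 3 to 152 (median 29) and 3 to 70 (median 29). Of the barcodes with 3 or more Clec4f UMIs, 59.7% (55.6 to 63.8; 344 of 576) were dual-marker in the library labelled WT and 40.5% (25.6 to 56.7; 17 of 42) in the library labelled KO. They made up 2.51% (2.25 to 2.78) and 0.179% (0.104 to 0.286) of all passing barcodes. Of barcodes with 3 or more Stab2 plus Clec4g UMIs they were 5.11% (4.59 to 5.66) and 0.525% (0.306 to 0.838).

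The threshold cuts a spread of values with many barcodes at both ends. Of the 576 Clec4f barcodes labelled WT, 116 held no Stab2 or Clec4g UMI, 77 held 1 and 39 held 2. Just inside the rule 36 barcodes held 3 and 33 held 4, and at the far end 173 held 30 or more. The barcodes just outside, at 2 UMIs, had a median of 8542 UMIs in all and of 9 UMIs of the LSEC list (24 LSEC genes fixed for this work, without Stab2 and Clec4g). Those just inside, at 3 UMIs, had 15630.5 and 19.5. The barcodes at 30 or more had 19948 and 456. On the Clec4f side, 61 LSEC barcodes held 2 Clec4f UMIs, with a median of 27 UMIs of the Kupffer list (23 Kupffer genes without Clec4f), and 21 held 3, with a median of 48.

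Dual-marker barcodes held more RNA than either reference kind. In the library labelled WT the lowest held 1440 UMIs, the median 17075 and the highest 80876, with a median of 4542 genes. Kupffer-marker barcodes had a median of 3719.5 UMIs and 1459 genes, and LSEC-marker barcodes 7059 and 2952. The ratios of medians were 4.59 and 2.42. The 2 reference medians sum to 10778.5, and 253 of 344 dual-marker barcodes (73.5%, 68.5 to 78.1) were at or above that sum. The medians labelled KO were 16318, 2518 and 5772 UMIs, with 12 of 17 dual-marker barcodes at or above the sum. Mitochondrial UMIs did not set the kinds apart, with medians labelled WT of 4.27%, 4.70% and 4.34%. A deep barcode reaches 3 UMIs of any gene more easily, so the rule itself favours deep barcodes. After each barcode was thinned to 2000 UMIs, 105 of 343 labelled WT and 6 of 16 labelled KO still met it (1 shallower barcode left out in each).

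Genes that the rule did not use showed how much RNA of each type a barcode held. The Kupffer list includes the scavenger receptors Marco and Cd163, the complement receptor Vsig4, the phosphatidylserine receptor Timd4 and complement C1q genes. Labelled WT, its median was 472 UMIs in dual-marker barcodes, 214 in Kupffer-marker and 9 in LSEC-marker barcodes. The LSEC list includes the VEGF receptor Kdr, the nuclease Dnase1l3 and the receptor Gpr182. Its medians were 266, 5 and 273 UMIs in the same order. Labelled KO, the Kupffer list medians were 298, 85 and 8 UMIs and the LSEC list medians 319, 4 and 229. Both lists were at or above the median of their own reference kind in 97 of 344 dual-marker barcodes labelled WT (28.2%, 23.5 to 33.3) and in 9 of 17 labelled KO.

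**Figure D1:**
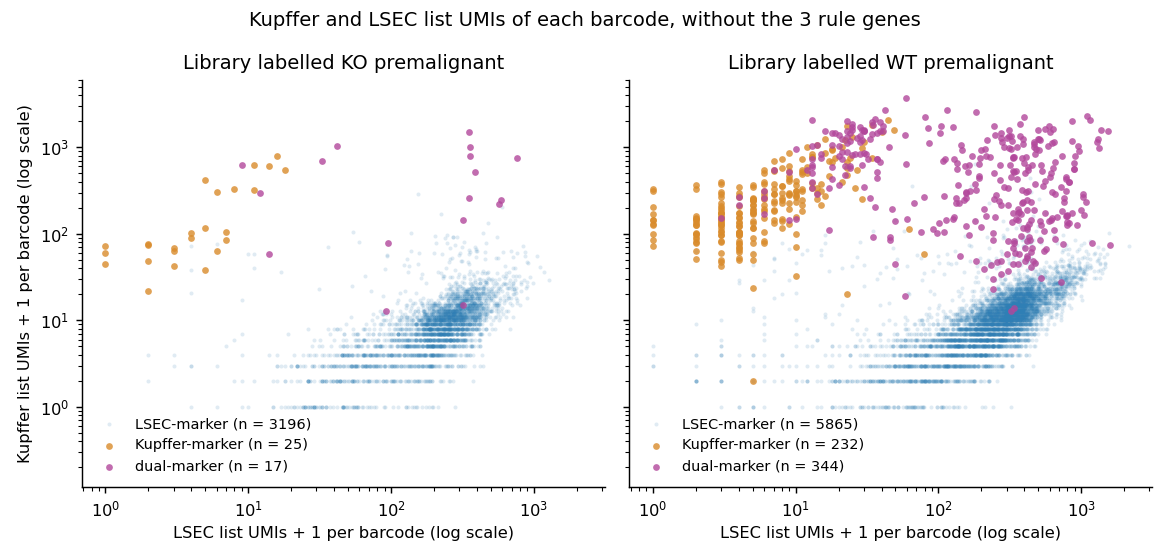
Each point is a barcode, with its LSEC list UMIs plus 1 on the horizontal axis and its Kupffer list UMIs plus 1 on the vertical axis, both on log scales, for the premalignant libraries labelled KO (left) and WT (right). Dual-marker barcodes fall into a cloud above the LSEC-marker barcodes and a second cloud that continues the Kupffer-marker barcodes to higher totals.

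Single genes gave the same picture. Timd4 was found in 76.7% of dual-marker barcodes labelled WT, 67.2% of Kupffer-marker and 0.95% of LSEC-marker barcodes. Vsig4 was found in 97.4%, 97.0% and 5.13%. On the endothelial side Kdr was found in 83.4%, 11.2% and 97.3%, and Mmrn2, a matrix protein of endothelium, in 73.5%, 2.16% and 89.1%. In CPM, Cd5l, a secreted macrophage protein, stood at 4670, 7577 and 15.9, and Dnase1l3 at 1260, 89.2 and 2737. Cdh5, the adherens junction cadherin, was also present in Kupffer-marker barcodes, at 531 CPM against 696 in dual-marker and 944 in LSEC-marker barcodes, so it does not separate the 2 types in this library.

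The dual-marker barcodes were not alike. Kupffer list UMIs as a percent of the UMIs of both lists ran from 3.58% to 99.4% over the 344 barcodes labelled WT, with quartiles of 32.6%, 65.8% and 94.7%. A division into 4 ranges, set after these values were seen, describes this spread: at or under 9.41%, where 95% of LSEC-marker barcodes lie (11 barcodes), from there to 50% (118), from 50% to 93.7% (126), and at or above 93.7%, where 95% of Kupffer-marker barcodes lie (89). They are cuts of a continuous value and not cell types, and many barcodes lie within 5 percentage points of a cut (8, 33, 21 and 78 from the lowest to the highest range). The 2 middle ranges hold 244 of the 344 barcodes. Each list there was far above its level in the opposite reference, which the cuts on the same lists in part set. Under 50%, the Kupffer list stood at 12304 CPM (LSEC-marker, 1551) and the LSEC list at 28479 CPM (Kupffer-marker, 1368). Above 50%, they stood at 36266 and 13671 CPM.

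The 89 barcodes of the highest range carried little LSEC RNA for their depth. Their LSEC list stood at 1271 CPM, against 1368 CPM in Kupffer-marker barcodes. Their median depth was 19445 UMIs against 3719.5, their median Stab2 plus Clec4g count 4 UMIs and their median LSEC list count 22 UMIs. For comparison, barcodes with T cell, B cell or NK cell genes and fewer than 3 Stab2 plus Clec4g UMIs held 734, 819 and 833 CPM of the LSEC list at median depths of 4991, 3526 and 4766 UMIs. Per UMI, the LSEC RNA of these 89 barcodes was thus close to that of Kupffer-marker barcodes and above that of the T, B and NK barcodes. The closeness is in part set by the cut of the range, which used the same LSEC list. The Kupffer-marker, T, B and NK barcodes were all held under 3 Stab2 plus Clec4g UMIs by their definition. The 4 barcodes of the highest range labelled KO differed, with 1850 CPM against 946 in Kupffer-marker barcodes. In the 11 barcodes of the lowest range the Kupffer list stood at 2400 CPM, above the 1551 CPM of LSEC-marker barcodes, with a median Clec4f count of 3 UMIs.

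The 17 dual-marker barcodes labelled KO covered the same span, from 4.26% to 98.7% Kupffer list UMIs. The barcode with the lowest share held 14 Kupffer and 315 LSEC list UMIs. The middle barcode held 519 and 388, in 19648 UMIs. The 4 with the highest shares held 298 to 1021 Kupffer list UMIs and 8 to 41 LSEC list UMIs. As in the library labelled WT, barcodes with large amounts of both lists stood beside barcodes that were nearly all Kupffer.

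Nuclear RNA separated the kinds in another way. Malat1 is a long noncoding RNA that is held in the nucleus and is abundant in nearly every nucleated cell. Labelled WT, it was at 0 UMIs in 78 of 232 Kupffer-marker barcodes (33.6%, 27.6 to 40.1), in 6 of 344 dual-marker barcodes (1.74%, 0.643 to 3.76) and in 100 of 5865 LSEC-marker barcodes (1.71%, 1.39 to 2.07). The median Malat1 count was 2 UMIs in Kupffer-marker, 197.5 in dual-marker and 111 in LSEC-marker barcodes. After thinning to 2000 UMIs, at least 1 UMI of the nuclear RNA list (Malat1, Neat1, Kcnq1ot1, Meg3 and Snhg11) was left in 65.7% (58.3 to 72.7) of Kupffer-marker barcodes, 97.4% (95.1 to 98.8) of dual-marker barcodes and 98.7% (98.3 to 99.0) of LSEC-marker barcodes. Within the dual-marker barcodes the median Malat1 count was 237 UMIs in the highest range of Kupffer share, 218 and 165 in the middle ranges and 156 in the lowest. The dual-marker barcodes with nearly pure Kupffer RNA therefore held as much Malat1 as the mixed ones.

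The Kupffer-marker barcodes labelled WT that held fewer than 3 nuclear list UMIs numbered 127 of 232 (54.7%, 48.1 to 61.3). They had a median of 2728 UMIs, 1099 genes, 174 Kupffer list UMIs and 4.93% mitochondrial UMIs. The other 105 had 6344 UMIs, 2343 genes, 297 Kupffer list UMIs and 4.65% mitochondrial UMIs. Labelled KO, 7 of 25 Kupffer-marker barcodes (28.0%, 12.1 to 49.4) and 0 of 17 dual-marker barcodes (interval up to 19.5%) were under 3 nuclear list UMIs. Barcodes with little nuclear RNA were thus common among Kupffer-marker barcodes labelled WT and rare among dual-marker barcodes.

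**Figure D2:**
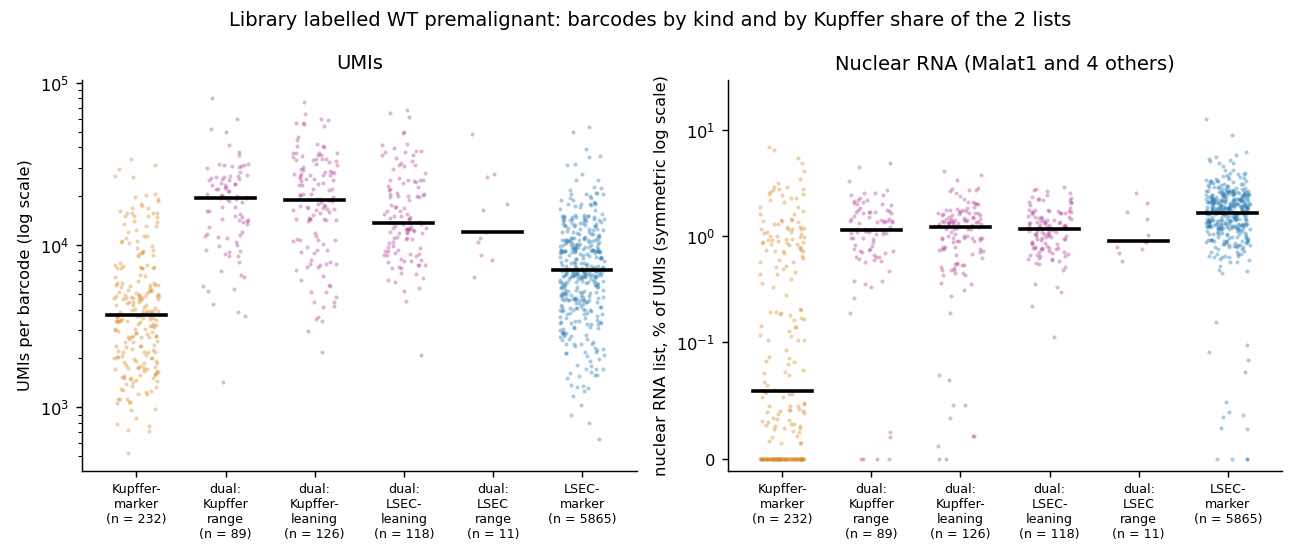
UMIs per barcode (left, log scale) and nuclear RNA list as a percent of UMIs (right, symmetric log scale) in the premalignant library labelled WT, for Kupffer-marker barcodes, the 4 ranges of dual-marker barcodes and LSEC-marker barcodes; black lines are medians over all barcodes, and of the LSEC-marker barcodes 400 drawn at random are shown as points. Kupffer-marker barcodes form a second group at or near 0 on the right that the other kinds hardly have.

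LSEC RNA also occurred with RNA of other cell types. Sets of 2 to 5 anchor genes each marked T, B, NK, monocyte, neutrophil and dendritic cells, at the same threshold of 3 UMIs. In the library labelled WT the share of such barcodes that held 3 or more Stab2 plus Clec4g UMIs was 13.7% for T (12.3 to 15.1), 12.9% for B (11.8 to 14.1), 17.4% for NK (14.4 to 20.7), 16.3% for monocyte (14.3 to 18.5), 27.1% for neutrophil (17.99 to 37.8) and 32.97% for dendritic anchors (28.2 to 38.0). Over barcodes with any of the 6 anchors and no Clec4f it was 12.95% (12.1 to 13.8), against 59.7% for Clec4f. The values labelled KO were 8.43% (7.68 to 9.23) and 40.5%.

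The gap depended on depth and on the number of UMIs asked for. At 3 or more Stab2 plus Clec4g UMIs, Clec4f stood above the other anchors together in each depth range labelled WT. Under 5000 UMIs the shares were 9.41% (5.48 to 14.8) against 2.35% (1.87 to 2.91). They were 70.5% against 23.9% from 5000 to under 15000. At 15000 UMIs and above they were 89.8% (85.0 to 93.5) against 62.7% (56.9 to 68.2), and labelled KO 90% against 41.7%. Counting only 10 or more Stab2 plus Clec4g UMIs, in barcodes of 15000 UMIs and above labelled WT, the share was 64.4% (57.6 to 70.7; 139 of 216) for Clec4f and 55.0% (49.2 to 60.7; 165 of 300) for any other anchor. With 30 or more UMIs it was 51.4% (44.5 to 58.2) and 47.3% (41.6 to 53.2), and these intervals overlap. In barcodes of 5000 to under 15000 UMIs the shares with 10 or more were 47.4% (40.1 to 54.7) and 18.6% (16.97 to 20.4). Under 5000 UMIs they were 1.76% (0.365 to 5.07) and 0.401% (0.219 to 0.672). Labelled KO, 8 of 10 Clec4f barcodes of 15000 UMIs and above held 10 or more (interval 44.4% to 97.5%), against 34.8% (28.6 to 41.3) for the other anchors. At 15000 UMIs and above labelled WT the share was 42.7% to 70.4% in the 5 sets with 5 or more such barcodes (T, B, NK, monocyte and dendritic). LSEC RNA was thus frequent in deep barcodes of these sets too. With 10 or more UMIs, the intervals of Clec4f and of the other anchors together were apart labelled WT only in the middle range of depth.

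**Figure D3:**
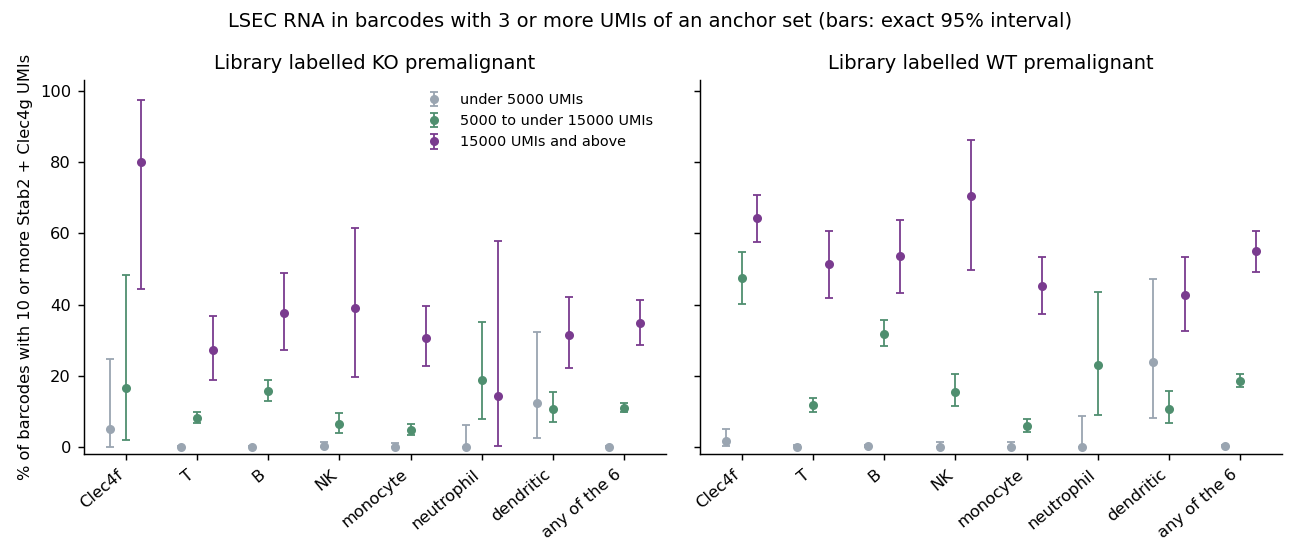
Percent of barcodes with 10 or more Stab2 plus Clec4g UMIs among barcodes with 3 or more UMIs of each anchor set (barcodes with Clec4f left out for all sets but Clec4f), in 3 ranges of depth, for the premalignant libraries labelled KO (left) and WT (right); bars are exact 95% intervals, and sets with fewer than 5 barcodes are not drawn. Most shares rise with depth, with exceptions in the thinly filled neutrophil and dendritic sets, and Clec4f lies above the 6 other sets together in the middle range labelled WT and in the deepest range labelled KO, the latter from 10 barcodes.

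Anchors of other blood cells were met in few of the dual-marker barcodes. Among those labelled WT, 18 of 344 held the T cell anchor (5.23%), 23 the B cell anchor (6.69%), 10 the monocyte, 9 the NK and 9 the dendritic anchor. The neutrophil anchor was met in 13, and in all 13 every anchor UMI was Csf3r, the G-CSF receptor, with Retnlg and Cxcr2 at 0. In LSEC-marker barcodes the T and B cell anchors were met in 4.67% and 6.07%. Longer marker lists reached 3 UMIs more often: hepatocyte genes in 93.9% of dual-marker, 77.2% of Kupffer-marker and 57.0% of LSEC-marker barcodes, and stellate genes in 34.9%, 6.90% and 16.6%. Monocyte genes did so in 32.8%, 16.8% and 6.22%, and erythroid genes in 23.5%, 5.603% and 9.19%. These shares are not matched for depth. The doublet caller scrublet marked 25 dual-marker barcodes labelled WT (7.27%, 4.76 to 10.5), 19 Kupffer-marker (8.19%, 5.003 to 12.5), 570 LSEC-marker (9.72%, 8.97 to 10.5) and 6.75% of all passing barcodes. It marked 3 of 17 labelled KO (17.6%, 3.80 to 43.4). As 1 group, the dual-marker barcodes labelled WT did not stand out by this caller. The share differed between the ranges of Kupffer share. From the lowest to the highest range the caller marked 1 of 11, 14 of 118 (11.9%), 9 of 126 (7.14%) and 1 of 89 (1.12%). The 3 marked barcodes labelled KO were among the 7 in the range from 9.45% to 50%. Whether a dual-marker barcode held 2 cells in 1 droplet, a cell with a piece of another bound to it, or a cell that made both kinds of RNA was not tested.

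The summed RNA of the dual-marker barcodes labelled WT was close to a blend of the 2 reference kinds. The blend that best matched it in the library labelled WT, over 14153 genes without the 3 rule genes, took 55.9% of its UMIs from the Kupffer-marker profile and the rest from the LSEC-marker profile. The Kupffer weight labelled KO was 53.4%. Against the blend, 237 of 12153 genes (1.95%) were more than 2-fold higher in the library labelled WT and 265 (2.18%) more than 2-fold lower, over genes with 20 or more observed plus expected UMIs. With a Kupffer reference free of Stab2 and Clec4g UMIs the first count was 478. The observed to expected ratio is given below as a log2 value. All 23 Kupffer list genes and all 24 LSEC list genes were within 2-fold of the blend, with medians of 0.02 and -0.06, beside 0.01 over all genes of the blend. The weight was fitted on these genes too, so medians near 0 are in part set by the fit. The largest departures in these lists were Slc40a1, the iron exporter, at 0.30 (0.28 to 0.33), and Ramp2, an adrenomedullin receptor component, at -0.37 (-0.43 to -0.31). The match was looser labelled KO, where the median over all genes of the blend was -0.14. The summed Kupffer list was at 0.36 (0.33 to 0.39) there, with 21 of 23 genes above 0 and 2 more than 2-fold higher. The summed LSEC list was at -0.10 (-0.15 to -0.06) and MHC class II genes at -0.63 (-0.70 to -0.56).

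Genes known for signals between LSECs and Kupffer cells were close to the blend labelled WT. Of 13 measured members 0 were past 2-fold, and the median was 0.04. Csf1r and Nr1h3 are in the Kupffer list too and Bmp2 in the LSEC list, and all 13 entered the fit of the weight. Among ligands, Csf1 was at -0.16 (-0.31 to -0.02), Bmp2 at 0.08 (0.04 to 0.12) and the Notch ligands Dll4 at 0.21 (0.07 to 0.33) and Dll1 at -0.43 (-0.77 to -0.12). Among receptors and targets in the macrophage, Csf1r was at 0.10 (0.07 to 0.14), Nr1h3, which encodes the nuclear receptor LXR alpha, at 0.04 (-0.02 to 0.09), and the BMP target Id3 at 0.02 (-0.01 to 0.05). Il34, the other ligand of Csf1r, was left out, with 6 UMIs that were all in 1 barcode. The list of scavenger genes of the sinusoid had 1 of 10 members past 2-fold: Mrc1 at 0.05 (0.01 to 0.08), Cd36 at 0.26 (0.21 to 0.31) and Lyve1, a hyaluronan receptor of endothelium, at 0.44 (0.38 to 0.50). The exception was Cd209f, a lectin of macrophages, at -3.39 (-4.52 to -2.47), with 9 UMIs in the dual-marker barcodes, 33.3% of them in 1 barcode, and with a UMI in 2.03% of them and in 4.31% of Kupffer-marker barcodes. Lysosome genes had 0 of 12 past 2-fold and a median of -0.01. All 7 MHC class II genes were below the blend but within 2-fold, with a median of -0.23.

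**Figure D4:**
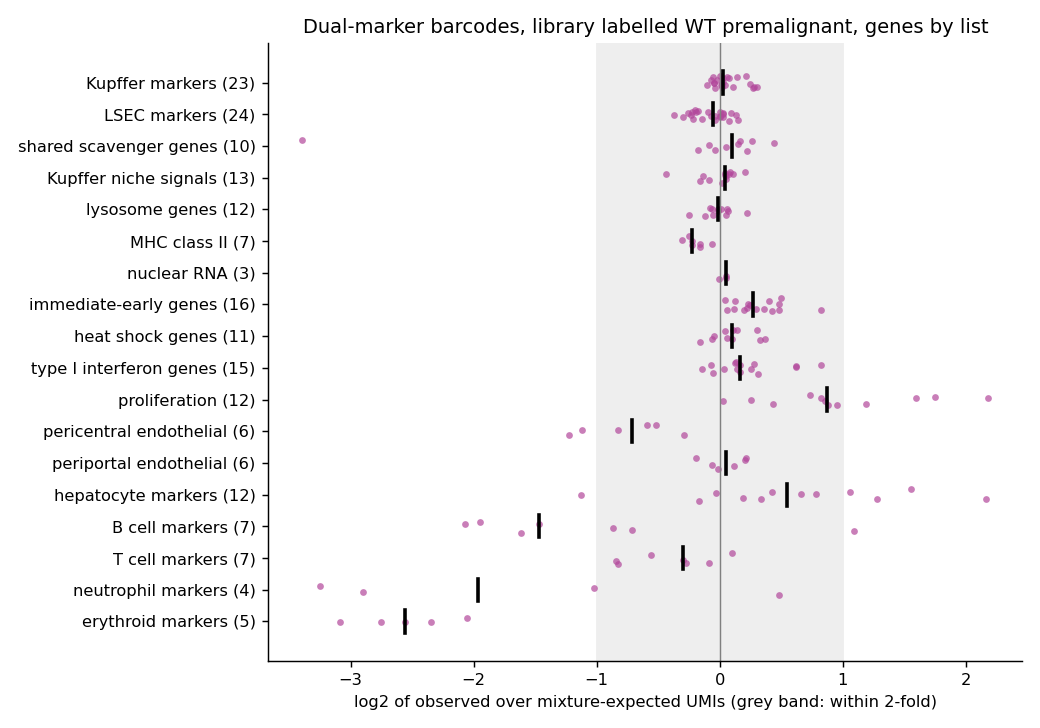
Log2 of observed over blend-expected UMIs for the genes of 18 lists in the dual-marker barcodes labelled WT; each point is a gene, black lines are list medians, the grey band marks values within 2-fold, and the number of genes is in brackets. Kupffer and LSEC genes lie around 0, proliferation genes lie to the right, and pericentral endothelial, neutrophil and erythroid genes to the left.

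Proliferation genes were above the blend in the library labelled WT. All 12 listed genes were above 0 and 4 were past 2-fold (33% against 1.95% of all genes): the ribonucleotide reductase subunit Rrm2 at 2.18 (1.97 to 2.38), the cycling marker Mki67 at 1.75 (1.59 to 1.90), the topoisomerase Top2a at 1.59 (1.43 to 1.74) and the survivin gene Birc5 at 1.18 (0.99 to 1.38). The list summed to 561 CPM in dual-marker, 368 in Kupffer-marker and 304 in LSEC-marker barcodes labelled WT. The order did not hold labelled KO, where it summed to 198, 194 and 307 CPM, a log2 ratio of dual-marker to LSEC-marker barcodes of -0.63 (-1.03 to -0.26). Of the 10 genes highest over the blend, chosen by rule among genes with 50 or more UMIs, 6 act in cell division or DNA copying and 2 are histone genes. Esco2, which joins sister chromatids, was at 3.25 (2.86 to 3.61), Hist1h2ap at 2.86 (2.68 to 3.04), the mitotic kinase Pbk at 2.41 (1.99 to 2.81) and the spindle protein Nusap1 at 2.27 (1.998 to 2.54). Foxm1, a transcription factor of the G2 and M phases, was at 2.16 (1.71 to 2.58) and the kinetochore motor Cenpe at 2.01 (1.70 to 2.30). Hist1h3d was at 1.95. The other 2 were Dppa3 at 2.02 and the chemokine receptor Ccr3 at 1.89, with UMIs in 19 barcodes each.

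These UMIs came from a minority of barcodes. Mki67 was found in 38 of 344 dual-marker barcodes, and 51 barcodes with 10 or more list UMIs (14.8%, 11.2 to 19.0) held 76.6% of the list's UMIs. Such barcodes were 3.02% (1.22 to 6.12) of Kupffer-marker and 2.199% (1.84 to 2.61) of LSEC-marker barcodes, which were shallower. After thinning to 2000 UMIs, 4.66% (2.69 to 7.47) of dual-marker, 2.81% (0.918 to 6.43) of Kupffer-marker and 0.999% (0.753 to 1.30) of LSEC-marker barcodes held 5 or more, and the share with at least 1 was 32.4%, 32.0% and 33.2%. By Kupffer share, the list stood at 264 CPM (196 to 347) in the lowest range, 355 (330 to 381) and 603 (574 to 632) in the middle and 777 (737 to 819) in the highest. In CPM the level was thus highest in the barcodes with nearly pure Kupffer RNA labelled WT. The ranges labelled KO did not follow this order, with 252, 275, 127 and 181 CPM from the lowest to the highest. Barcodes with 10 or more list UMIs were also counted by range labelled WT. They were 1 of 11, 16 of 118, 20 of 126 and 14 of 89 in the same order. Above the lowest range these shares were similar, and the CPM intervals do not cover spread between barcodes. Among those labelled KO, 1 of 17 dual-marker barcodes held 10 or more list UMIs, and Mki67 was at 0 UMIs.

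Zonal endothelial genes differed from the blend in 1 direction. LSECs near the central vein express Wnt2, Wnt9b, Rspo3, Thbd, Kit and Cdh13, and those near the portal tract Efnb2, Ltbp4, Dll4, Ntn4, Adam23 and Sox17. All 6 pericentral genes were below the blend in the library labelled WT, 2 of them past 2-fold (33% against 2.18% of all genes), with a median of -0.71. Wnt9b was at -1.22 (-1.80 to -0.70), Rspo3, which amplifies Wnt signalling and had UMIs in 28 barcodes, at -1.12 (-1.27 to -0.96), and Wnt2 at -0.59 (-0.69 to -0.49). The periportal genes stayed near it, with a median of 0.05 and 0 of 6 past 2-fold. As a share of pericentral plus periportal UMIs, pericentral UMIs were 26.2% (25.3 to 27.1) in dual-marker and 36.7% (36.5 to 37.0) in LSEC-marker barcodes. Counted by barcode, pericentral UMIs outnumbered periportal ones in 50 of 310 dual-marker barcodes that differed (16.1%, 12.2 to 20.7) and in 28.3% (27.1 to 29.5) of LSEC-marker barcodes. The shares in the 4 ranges, from low to high Kupffer share, were 24.2%, 25.1%, 28.0% and 31.1%, all under the 36.7% of LSEC-marker barcodes. The interval of the highest range (24.0 to 38.8, from 50 pericentral and 111 periportal UMIs) includes that value. In the library labelled KO the share was 46.2% (41.5 to 51.02) against 45.3% (44.9 to 45.6), with 61.9% of the dual-marker pericentral UMIs in 1 barcode. Counted by barcode it was 2 of 14 (14.3%, 1.78 to 42.8) against 36.5% (34.8 to 38.3), the same direction as labelled WT.

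Immediate-early genes, which are induced within minutes by stress and by tissue dissociation, were slightly above the blend labelled WT. Of these, 16 of 16 were above 0, 0 were past 2-fold, and the summed list was at 0.28 (0.27 to 0.30). Egr1 was at 0.82 (0.75 to 0.89) and Fos at 0.50 (0.46 to 0.54). The nuclear RNA list itself was at 0.05 (0.04 to 0.06). With only Kupffer-marker barcodes of 3 or more nuclear list UMIs as reference, the summed list was at 0.09, the proliferation list at 0.68 and the pericentral list at -0.60. Of the 10 genes lowest against the blend, 7 are known from neutrophils, B cells or hepatocytes. The neutrophil genes S100a9 and S100a8 were at -3.25 (-3.98 to -2.60) and -2.90 (-3.48 to -2.38), and the B cell genes Vpreb3, Fcmr and Ms4a1 at -2.27 to -2.07. The neutrophil values rest on few reference barcodes. Only 10 of 5865 LSEC-marker barcodes held 3 or more neutrophil list UMIs, and 1 held 28.5% of the 5811. The intervals cover the observed counts and not this unevenness of the reference. The hepatocyte enzymes Bhmt and Hpd were at -2.21 and -2.02, and the other 3 were Tmem108, Wfdc21 and Tespa1. The hepatocyte list went the other way, with a median of 0.54, 9 of 12 members above 0, 4 more than 2-fold higher and 1 lower. All 5 measured erythroid genes were past 2-fold lower, with a median of -2.56. The B cell list had a median of -1.47, with 1 of 7 members more than 2-fold higher and 4 lower. Summed, the hepatocyte and B cell lists were at 0.69 and 0.32, but 1 barcode held 71.8% and 75.7% of their UMIs. Without it the sums were at -1.13 and -1.72.

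Set against each reference in the library labelled WT, genes of the opposite type led, as the rule would give. Of 11399 genes tested against Kupffer-marker barcodes, 18.6% were more than 2-fold higher in dual-marker barcodes, as were 23 of 24 LSEC list genes, all but Cdh5. The 10 highest were Fbxl7, the protease Adamts1, Mmrn2, Lrrc32, Hoxa5, Mxra7, Cdh13, Lyve1, Apbb2 and Nova2, with log2 ratios of 5.35 to 6.38. Of 14100 genes tested against LSEC-marker barcodes, 9.91% were more than 2-fold higher, as were 23 of 23 Kupffer list genes. The 10 highest were the glutamate transporter Slc1a3, En2, Gfra2, Marco, Mmp27, Cd5l, Timd4, Pcolce2, Cd163 and Vsig4, at 7.94 to 9.09. Each of these 20 genes was within 2-fold of the blend labelled WT, from -0.83 to 0.52.

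Dual-marker barcodes of the library labelled KO were then set beside those of the library labelled WT, 17 barcodes with 292461 UMIs against 344 with 6970773. Of 11226 genes with 20 or more UMIs in both together, 5.03% were more than 2-fold higher and 14.1% more than 2-fold lower in the library labelled KO. The lower genes include 790 with no UMI in its 17 barcodes. With so few UMIs labelled KO, a count of 0 is likely for a gene near the minimum of 20, so the 2 shares are not on an equal footing. The median over these genes was -0.04. The Kupffer list was slightly lower, at a log2 ratio of -0.21 (-0.24 to -0.18) for its summed UMIs, and the LSEC list was level, at 0.01 (-0.04 to 0.05). Clec4f stood at 2855 and 2899 CPM, and Cd5l at 3440 and 4670. Marco stood at 294 CPM labelled KO and 691 labelled WT, with 66.3% of the UMIs labelled KO in 1 barcode.

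Immediate-early genes were higher in the library labelled KO. All 16 were above 0, with a median of 0.93 and a summed log2 ratio of 0.89 (0.83 to 0.94), or 10418 against 5636 CPM. A single barcode held 32.5% of these UMIs, and without it the ratio was 0.53 (0.47 to 0.60). Kupffer-marker barcodes shifted in the same direction, with 12345 CPM labelled KO and 4040 labelled WT, while LSEC-marker barcodes held 5064 and 5376. Other measures of RNA and handling moved with the dual-marker values: nuclear RNA was at 0.35 (0.31 to 0.39; 3 of 3 genes above 0), heat shock genes at 0.25 (0.19 to 0.31; 9 of 11 above 0), and the median mitochondrial share was 5.72% labelled KO and 4.27% labelled WT. Their part in the result was not tested. Summed proliferation UMIs were lower, at 198 CPM against 561, a log2 ratio of -1.50 (-1.90 to -1.13), with 58 UMIs in the library labelled KO. Barcodes with 10 or more list UMIs were 51 of 344 labelled WT, holding 76.6% of the list's UMIs there. Labelled KO they were 1 of 17 (5.88%, 0.149 to 28.7). The interval of the ratio does not cover this unevenness. After thinning to 2000 UMIs, 31.25% labelled KO and 32.4% labelled WT held at least 1 list UMI. Type I interferon genes, induced by viral or nucleic acid sensing, were at -0.40 (-0.51 to -0.29) with 3 of 15 above 0. Hepatocyte genes were at -2.11 (-2.33 to -1.89), but at -0.29 (-0.52 to -0.07) without the barcode labelled WT that held most of them. Pericentral genes were at 0.98 (0.76 to 1.18), and at -0.17 (-0.51 to 0.16) without the barcode labelled KO that held most of them. The 5 highest genes by rule, Stau2, D16Ertd472e, Zbtb2, 2810001G20Rik and Mmgt1, had log2 ratios of 1.58 to 1.87 from 10 to 12 UMIs labelled KO. The 5 lowest were the chemokine Ccl5, at -2.94 (-3.89 to -2.13), and 4 genes with no UMI labelled KO. Ccl5 was not found in a smaller share of barcodes labelled KO, with UMIs in 8 of 17 against 129 of 344. A single barcode held 14.7% of its UMIs labelled WT, and the interval does not cover such unevenness. For the 4 genes at 0, the fold bounds against a floor of 3 UMIs over the group treat UMIs as independent. The bounds were 6.82 for the elastase Mmp12, 4.99 for Pclaf, 4.66 for Mki67 and 4.43 for the pantothenate kinase Pank2. Pank2 was the exception among these 4 in being widespread labelled WT, with UMIs in 178 of 344 barcodes against 29 to 44 for the others. With so few barcodes labelled KO, none may hold a gene found in 29 to 44 of 344 barcodes even at an equal level. For Mmp12, Pclaf and Mki67 the count of 0 therefore does not show a lower level.

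**Figure D5:**
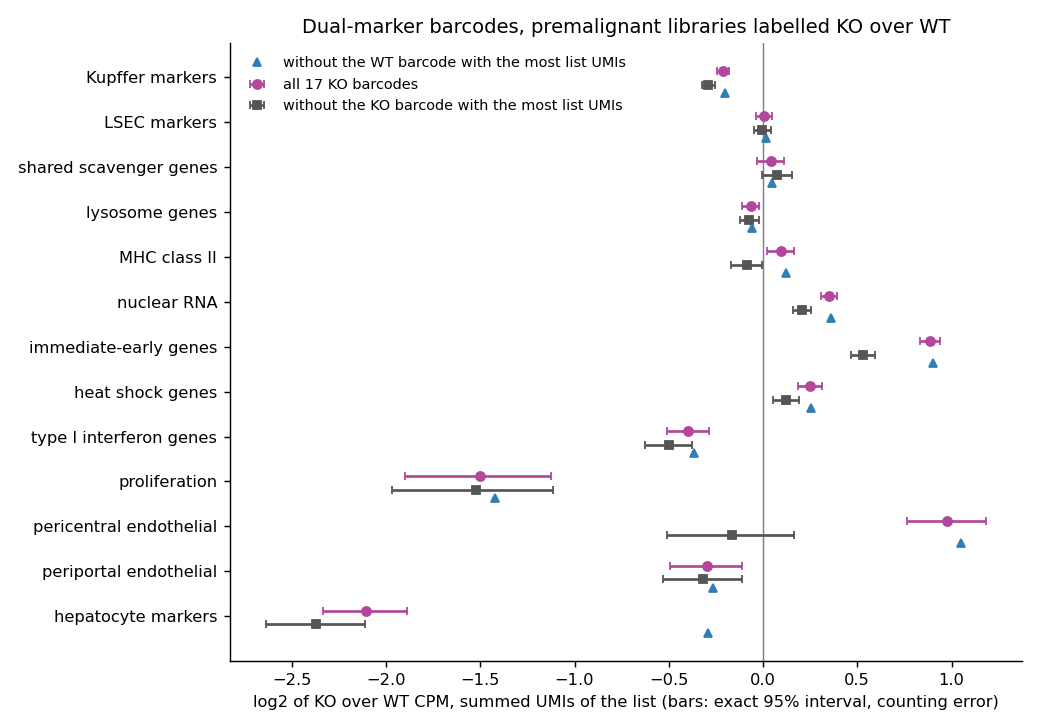
Log2 of CPM in dual-marker barcodes labelled KO over those labelled WT, for summed UMIs of 13 lists; circles are all barcodes, squares leave out the barcode labelled KO and triangles (drawn without bars) the barcode labelled WT with the most UMIs of the list, and bars are exact 95% intervals for counting error. The pericentral and hepatocyte values each rest on 1 barcode, and the immediate-early value is smaller without 1 barcode.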

How the data were processed

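The authors deposited raw UMI counts per gene and barcode, not normalised. Cell Ranger version 3.0.1 is named per the file headers, and per the submitters' processing notes bcl2fastq 2.20.0 was used. The notes name GRCh38 and mm10 with no role for either build. The files list 31053 genes. Dual-marker barcodes, gene lists and anchors were chosen with earlier results of these data known. Totals were 56458438 UMIs in the premalignant library labelled KO and 96593761 in that labelled WT. UMIs were summed per kind of barcode and divided by all UMIs of that kind. The Kupffer weight maximised the multinomial likelihood of the summed dual-marker counts over genes with at least 20 UMIs, and the code recovered known weights in simulated data. Shares have Clopper-Pearson, CPM and observed over expected values Poisson, and log2 ratios conditional binomial 95% intervals. These cover counting error only. No doublets were removed; scrublet (scanpy 1.11.5) served as an alternative.

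Anchor genes were Cd3d, Cd3e, Cd3g (T); Cd79a, Cd79b (B); Ncr1, Klrb1c, Klre1 (NK); Ly6c2, Ccr2, F13a1 (monocyte); Retnlg, Csf3r, Cxcr2 (neutrophil); Xcr1, Clec9a, Cd209a, Siglech, Ccr9 (dendritic). Named genes had at least 50 UMIs in the sums compared and at most 25% of the dual-marker UMIs in 1 barcode, without rule genes, receptor segments and mitochondrial genes: the 10 highest and lowest against the blend, the 10 highest over each reference and the 5 highest and lowest between labels. Genes at 0 labelled KO were ranked by their bound against 3 UMIs. List members were also named.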

Additional observations from a re-analysis of the deposited data

Results flagged for a closer look

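The eHCC libraries were outside the comparisons, but dual-marker barcodes occurred there too. In the library labelled WT eHCC 5 of 10282 passing barcodes met the rule (0.049%, exact interval 0.016 to 0.113). They were 5 of 21 barcodes with 3 or more Clec4f UMIs (23.8%, exact interval 8.22 to 47.2). In the library labelled KO eHCC 2 of 13 such barcodes did.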

How the results depend on the processing

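With 1 library per group no replicate could be left out. No paired analysis was possible because each group holds 1 library. Thinning to 2000 UMIs left 105 dual-marker barcodes labelled WT (26.3% of Clec4f barcodes) and 6 labelled KO (25%), against 4.97% and 2.39% for the other anchors. Thresholds of 2 UMIs gave 67.2% labelled WT and 21.1% and 12.9% for the other anchors labelled WT and KO. Thresholds of 5 gave 46.1% labelled WT, 11 barcodes labelled KO, and 10.5% and 6.93% for the other anchors. The Kupffer list median labelled WT was 312 UMIs at a threshold of 2, the LSEC list median 334 at 5, and the ratio of dual-marker to Kupffer-marker medians 4.03 at 5. The Kupffer weight labelled WT was 54.4% at 2, 52.6% at 5, 52.5% with a reference free of Stab2 and Clec4g, 53.3% with equal weight per barcode, 57.4% without barcodes marked by scrublet and 57.8% with a nucleated Kupffer reference. Labelled KO it was 41.3%, 49.8%, 48.9%, 49.0% and 62.3% under the first 5 of these, and 54.0% with at most 10% mitochondrial UMIs. Genes 2-fold above the blend numbered 478 with the reference free of Stab2 and Clec4g; a minimum of 50 UMIs, with fewer genes tested, left 102 above and 133 below the blend, and 328 higher and 978 lower labelled KO. The cause of the other shifts was not tested. No value past 2-fold changed sign under these settings; the hepatocyte and B cell sums against the blend, and the pericentral sum between labels, changed sign without 1 barcode, as given above. The nucleated reference and the sums without 1 barcode were chosen after seeing the data. Of 199 values of named genes against the blend 192 kept their sign and 48 moved beyond counting error. Of 150 values of lists 130 kept their sign and 98 moved. The comparison between labels rests on 17 barcodes labelled KO and 1 library per label.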

Other observations

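Heat shock genes and platelet genes in the dual-marker barcodes labelled WT were not described above. Heat shock genes were close to the blend of the reference kinds, with 0 of 11 past 2-fold and a summed log2 ratio of 0.11 (0.09 to 0.12). Platelet genes numbered 3 measured members, all above 0 and within 2-fold, at 75.03 CPM against 83.1 in Kupffer-marker and 45.4 in LSEC-marker barcodes. A list of general and non-sinusoidal endothelial genes had 0 of 9 measured members past 2-fold and a median of -0.04. It includes Pecam1 and Cldn5, which LSECs also held, and the Weibel-Palade protein Vwf and the selectin Selp, found in 21 and 9 of 344 barcodes. Stellate cell genes had 3 of 9 more than 2-fold higher. These were the collagens Col1a1, Col1a2 and Col3a1, with UMIs in 4, 3 and 6 barcodes and 65.8%, 64.2% and 64.2% of them in 1 barcode. Cholangiocyte genes had 5 of 6 more than 2-fold lower, with 74.0% of their dual-marker UMIs in 1 barcode. The references were uneven too. A single barcode held 85.2% of the 351 cholangiocyte UMIs of Kupffer-marker barcodes, and another 27.6% of those of LSEC-marker barcodes. The expected values thus rest on few barcodes. T, NK, monocyte and dendritic cell lists had medians of -0.30, -0.20, -0.59 and -0.28.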
